A study of Mus musculus with 56 samples.

Results

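Livers of 16 mice given semaglutide at a low or a high dose were compared by RNA sequencing. The members were chosen by the treatment and diet that the sample labels give: 8 mice labelled semaglutide_high and 8 labelled semaglutide_low, all on the AMLN diet, of 56 mice in 7 groups of 8. The AMLN diet is rich in trans-fat, fructose and cholesterol, and male C57BL/6J mice, 5 to 6 weeks old on arrival, fed it for 36 weeks are called DIO-MASH mice here, for diet-induced obese mice with metabolic dysfunction-associated steatohepatitis. Only mice with biopsy-scored steatosis and fibrosis entered treatment, which was given subcutaneously each day for 8 weeks with the diet continued. The low dose was 3 µg/kg and the high dose 120 µg/kg, a 40-fold step. Chow-fed mice given vehicle and DIO-MASH mice given vehicle serve as references. Zalfermin, a fibroblast growth factor 21 (FGF21) analogue, was given at 0.05 mg/kg (low) or 0.2 mg/kg (high) to DIO-MASH mice in 2 further groups. In the remaining group, DIO-MASH mice received zalfermin at 0.05 mg/kg together with semaglutide at 3 µg/kg. That group is used here only in the fit over all 7 groups. Each sample is the liver of 1 mouse.

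Semaglutide is a long-acting agonist of the glucagon-like peptide-1 receptor (GLP-1R), which lowers food intake through receptors in the brain and raises glucose-dependent insulin release. Hepatocytes carry little or no GLP-1R, so that the drug is thought to act on the liver largely through weight loss, insulin and other organs. In steatohepatitis, hepatocytes store fat and lose part of their specialised programme of bile acid, amino acid and drug metabolism, while macrophages and stellate cells expand and collagen is laid down. The comparison of both doses asks how much of the hepatic response depends on dose. In these livers Glp1r itself held 2 reads in all over the 8 high-dose mice and 2 over the 8 low-dose mice.

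Low-dose mouse 6, whose label number is 4650, stood apart from its group: its mean Spearman correlation across genes with the other low-dose mice was 0.967, against 0.981 to 0.986 for the other 7, and 0.979 to 0.987 among the high-dose mice. The study left out 1 mouse of this group as an outlier without naming it. Comparisons are therefore given with all 16 mice and without low-dose mouse 6, and the difference of a single list member is that without it unless stated. The label numbers also fall into series of neighbouring numbers, called A to D, and what separates these series is not stated. Both doses hold 4 mice of series A, 2 of B and 2 of C, and low-dose mouse 6 is in series B. Total counts ran from 8037163 to 20885786 in the low-dose mice and from 8315012 to 15848192 in the high-dose mice. Hepatocyte identity was plain in both groups, with albumin (Alb) at 52800 to 83200 CPM (read counts scaled to library size) at the low dose and 49800 to 84200 CPM at the high dose.

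No gene passed the test between the doses when all 16 mice were compared. None of 14105 genes tested reached an adjusted p under 0.05 in edgeR's quasi-likelihood test with Benjamini-Hochberg adjustment (0%, smallest adjusted p 0.999), DESeq2 also called 0, and limma voom with sample quality weights called 1, Slc29a1. At an unadjusted p under 0.05 there were 549 genes (3.89%), of which 262 (1.86%) were higher and 287 (2.03%) lower at the high dose. Without low-dose mouse 6 the count of genes past the adjusted threshold was 2 (0.0142%), and 1052 (7.46%) had an unadjusted p under 0.05. Of these, 570 (4.04%) were higher and 482 (3.42%) lower at the high dose. A p-value that misses the threshold does not show that both doses acted alike, and the intervals of the differences are given further below.

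The 2 genes that rose at the high dose without low-dose mouse 6 were Slc29a1 and Cnmd. Slc29a1 encodes the equilibrative nucleoside transporter ENT1, which carries adenosine and other nucleosides across the cell membrane. It lies on chromosome 17 of GRCm38 at 45585200 to 45599606, minus strand, under a non-coding antisense gene, Gm17080, and whether the reads were counted by strand is not stated. Cnmd encodes chondromodulin, a membrane glycoprotein first known from cartilage that inhibits vessel growth. It lies on chromosome 14 at 79637690 to 79662170, minus strand, with no other annotated gene over it.

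Slc29a1 ranged from 115 to 227 CPM at the low dose, with a median of 132, and from 160 to 248 CPM at the high dose, with a median of 185. The highest low-dose value was that of low-dose mouse 6, and without it the low-dose range was 115 to 177 CPM, so that both groups still overlapped. The chow-fed mice stood at 170 to 238 CPM and the DIO-MASH vehicle mice at 113 to 156 CPM. The fitted difference without low-dose mouse 6 was 0.525 on the log2 scale (SE 0.0905), or 1.44-fold with a 95% interval of 1.27 to 1.63, at an adjusted p of 0.00532 in edgeR's test. Over all 16 mice it was 0.41, with an unadjusted p of 0.00012 that did not survive adjustment. Against DIO-MASH vehicle, in the fit without low-dose mouse 6, Slc29a1 was 0.66 higher at the high dose (adjusted p 3.23e-06) and 0.14 higher at the low dose (adjusted p 0.999), both by edgeR on the log2 scale and both against the same vehicle mice.

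Cnmd was a low-abundance transcript. It ranged from 0.682 to 6.33 CPM at the low dose, from 0.682 to 2.45 CPM without low-dose mouse 6, and from 2.3 to 9.75 CPM at the high dose. Low-dose mouse 6 was thus inside the high-dose range, and only the lowest high-dose mouse lay within the range of the other 7 low-dose mice. The chow-fed mice held 5.98 ± 1.76 CPM (SD, n = 8) and the vehicle mice 1.22 ± 0.54 CPM (SD, n = 8). The difference without low-dose mouse 6 was 1.66 on the log2 scale (SE 0.31), or 3.17-fold with a 95% interval of 2.05 to 4.89, at an adjusted p of 0.0146 in edgeR's test. Over all 16 mice it was 1.23 (unadjusted p 0.000461).

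Within the number series, the Slc29a1 means without low-dose mouse 6 were 218 CPM at the high dose and 129 at the low dose in series A, 185 and 129 in series B, and 166 and 156 in series C. Those of Cnmd were 6.39 and 1.63 CPM in series A, 2.83 and 0.869 in series B, and 3 and 1.38 in series C. Without low-dose mouse 6, both genes were higher at the high dose in each series, where series B held 1 low-dose mouse. The smallest log2 ratios were in series C (0.09 for Slc29a1 and 1.12 for Cnmd). With low-dose mouse 6 the low-dose means of series B were 178 CPM for Slc29a1 and 3.6 CPM for Cnmd, so that Cnmd was lower at the high dose there. Whether the ratios differ between the series was not tested. Neither gene passed the threshold when the 2 semaglutide groups were fitted alone (adjusted p 0.312 for each, by edgeR), and Cnmd lost its call when any 1 of 6 other mice (low-dose mice 2, 5, 7 and 8, high-dose mice 3 and 4) was also left out.

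**Figure D1:**
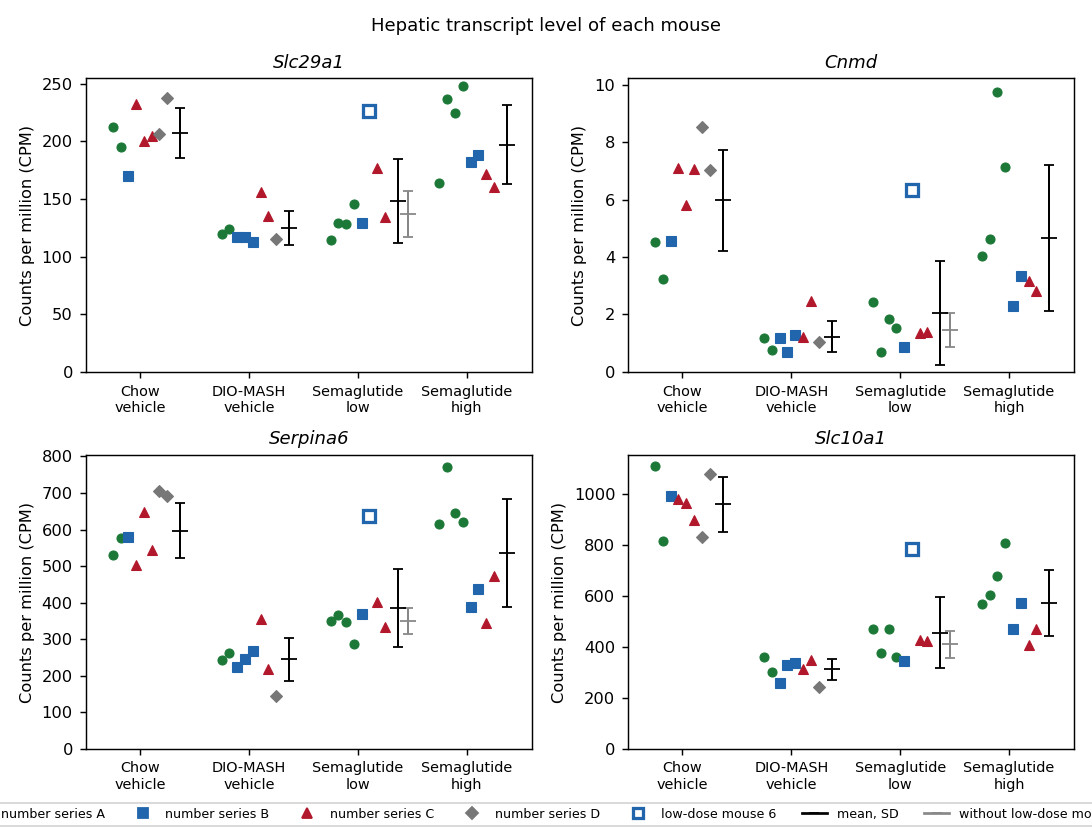
CPM of Slc29a1, Cnmd, Serpina6 and Slc10a1 in each mouse (points, by number series) of the chow vehicle, DIO-MASH vehicle, low-dose and high-dose semaglutide groups, with mean and SD (bars, n = 8; grey, the low dose without low-dose mouse 6). The open square, low-dose mouse 6, lies among the high-dose mice in all 4 panels, for example at 6.33 CPM for Cnmd, and the highest value of the high-dose group is that of a series A mouse in each panel.

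The genes next in order of unadjusted p without low-dose mouse 6 are described here and did not pass the test. Serpina6, which encodes corticosteroid-binding globulin, the carrier of glucocorticoids in plasma, ranged from 286 to 403 CPM in 7 low-dose mice and from 345 to 772 CPM in the high-dose mice, against 597 ± 75.6 CPM in chow-fed mice and 245 ± 59 CPM in vehicle mice (SD, n = 8). Its difference was 0.62 (log2, SE 0.15, adjusted p 0.281), and low-dose mouse 6 stood at 636 CPM. The same adjusted p of 0.281 held for Prkag2, a subunit of AMP-activated protein kinase, at 0.37, for Urad, an enzyme of urate breakdown, at 0.74, and for Tk1, the thymidine kinase of the salvage pathway, at 0.78. Srxn1, the sulfiredoxin that repairs oxidised peroxiredoxins, differed by -0.67 at that adjusted p. So did 6430548M08Rik, by -0.63. Slc16a10, a carrier of aromatic amino acids, differed by 0.52 and Cisd1, which encodes the mitochondrial protein mitoNEET, by 0.42, each at an adjusted p of 0.344. In the fit of all 16 mice, the 10 smallest unadjusted p-values also held Fam131c (-0.72), Wdhd1 (-0.93), Mcm7 (-0.44) and Tlcd1 (0.34), of which Wdhd1 and Mcm7 act in DNA replication.

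Few genes separated the doses mouse by mouse, and those named here were chosen after their values were seen. Over all 16 mice, the ranges of both doses did not overlap for 3 of 14105 genes (0.0213%): Agpat5, an acyltransferase of phospholipid synthesis, and Ppp4r1, a regulatory subunit of protein phosphatase 4, were lower in every high-dose mouse, and Amigo2, an adhesion molecule, was higher. Without low-dose mouse 6 there were 10 (0.0709%), which held those 3 and Uqcc3, Oxa1l, Hmgb1, 2610528J11Rik, Fam131c, Dusp3 and Colgalt1. Their differences were small, from -0.79 for Fam131c to 0.40 for Uqcc3 on the log2 scale. Without any dose difference, a share of 0.000155 of the 12870 splits into 8 and 8 mice would separate a given gene fully. For the 6435 splits into 8 and 7 mice the share is 0.000311. Whether the counts of 3 and 10 exceed those shares was not tested.

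The width of the intervals varied with the level of a gene. For all 16 mice, the 95% interval of the high-minus-low difference lay wholly within 2-fold either way for 11673 of 14105 genes (82.8%) and within 1.5-fold for 9220 (65.4%). Of the 11858 genes with a mean of 1 CPM or more, 95.3% lay within 2-fold, as did 98.5% of the 7595 genes at 10 CPM or more. Without low-dose mouse 6 the shares were 81.3% of all genes and 94% of those at 1 CPM or more. Counts were also simulated for 8 against 8 mice, with the 2 groups fitted alone and each gene drawn independently. There the test recovered 54% of 1.5-fold changes and 86.5% of 2-fold changes, 200 of each planted among 13646 genes. The fit over all 7 groups and differences that the genes of 1 mouse share were not simulated, so these rates may not hold for the comparison reported here.

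**Figure D2:**
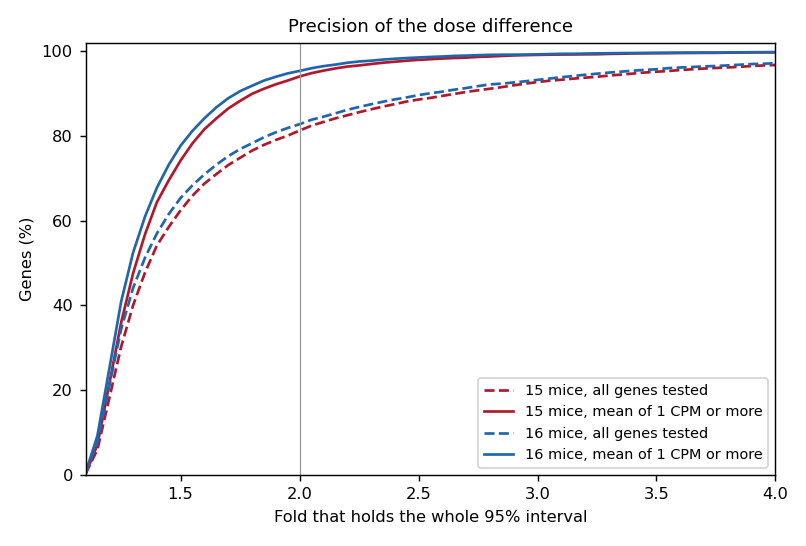
Share of genes (%) whose 95% interval of the high-to-low ratio lies wholly within a given fold either way, for all genes tested (dashed) and genes with a mean of 1 CPM or more (solid), with 16 mice (blue) and without low-dose mouse 6 (red). At 2-fold the solid lines stand at 95.3% and 94%.

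To place the doses between disease and health, each mouse was given a position on a disease axis. The axis used 6803 genes past the adjusted threshold between the chow and DIO-MASH vehicle groups, 3079 higher and 3724 lower in chow, chosen from those 16 mice alone, and a mouse's position is the mean signed z-score rescaled so that the vehicle mean is 0% and the chow mean 100%. High-dose mice stood at 29.8% ± 24.6 (SD, n = 8) and low-dose mice at 22.7% ± 26.9 (SD, n = 8). The difference was 7.16 percentage points (95% interval -20.8 to 33.7, exact two-sided permutation p = 0.588). Low-dose mouse 6 stood at 81.4%, above every other semaglutide mouse. Without it the low-dose mice stood at 14.3% ± 13.6 (SD, n = 7), from -2.86% to 28.7%, and the difference was 15.6 points (interval -8.37 to 38, exact p = 0.165). The high-dose mice ran from -11.6% to 65.5%, so that the groups overlapped in either case.

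Position on the axis varied with number series among the high-dose mice. The 4 high-dose mice of series A stood at 37.3% to 65.5%, while the 2 of series B stood at 16.5% and 19.5% and the 2 of series C at -11.6% and 16.6%. In the low-dose mice, series A ran from 1.76% to 28.7%, and series C stood at 21.9% and -2.86%. The high-minus-low difference was 29.5 points in series A and -7.07 in series C. In series B it was -23.3 points with low-dose mouse 6 and 16.9 without it, where a single low-dose mouse was left. The difference between the series was not tested. High-dose mouse 7, of series C, held the lowest value. Leaving out each further mouse in turn besides low-dose mouse 6 gave the largest difference without this mouse, 0.318 in mean z-score. The exact permutation p of that fit was 0.0332, against 0.165 with high-dose mouse 7 kept. As the fit was picked by its outcome, its p is no test of the dose difference.

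**Figure D3:**
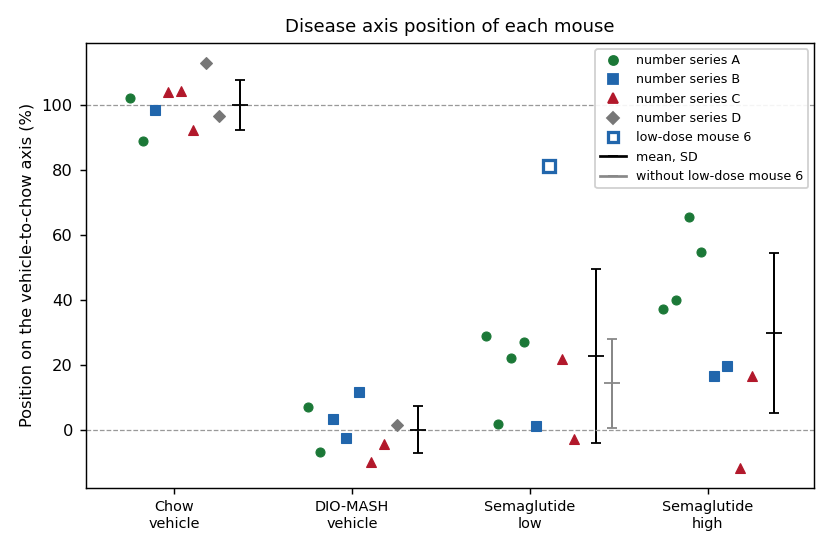
Position of each mouse (points, by number series) between the DIO-MASH vehicle mean (0%) and the chow mean (100%), with mean and SD (n = 8; grey, the low dose without low-dose mouse 6). The high-dose mice of series A stand at 37.3% to 65.5% and those of series B and C at -11.6% to 19.5%, and low-dose mouse 6 at 81.4% is the highest of the semaglutide mice.

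Across the axis genes, the sign of the dose difference can be set beside the chow-to-vehicle direction, which rests on other mice. In the fit of all mice, 4683 of 6803 axis genes (68.8%) had a high-minus-low difference in the direction of chow. Without low-dose mouse 6 this was 5359 (78.8%). Among axis genes with an unadjusted p under 0.05 the counts were 263 of 294 (89.5%) and 684 of 711 (96.2%). Genes of 1 liver vary together and are not independent replicates, and the test over mice is the one of the axis position above.

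In number series A alone, with 4 mice a dose, 6 of 13198 genes passed the adjusted threshold (0.0455%). Serpina6 was 0.99 higher on the log2 scale at the high dose, Acot3, a peroxisomal acyl-CoA thioesterase, 1.54 higher, Gstt3, a glutathione transferase, 0.94 higher, Gnmt, the glycine N-methyltransferase that uses S-adenosylmethionine, 0.69 higher, Prodh, proline dehydrogenase, 0.72 higher. Myh10, a non-muscle myosin heavy chain, differed by -0.75. These were named after their values were seen, at adjusted p-values by edgeR of 0.0357 to 0.0388. Slc29a1 and Cnmd had adjusted p-values of 0.0678 and 0.0687 in that fit.

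The remaining genes are described by lists of pathways and cell types, with the number of members at an unadjusted p under 0.05 read against 4.04% higher and 3.42% lower among all genes tested without low-dose mouse 6. No member of any list passed the adjusted threshold. The median difference of all genes tested was -0.01 (log2) with and without that mouse, and the lists were drawn up with earlier results of these data known. Bulk tissue cannot tell fewer cells of a type from less RNA per cell.

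Genes of hepatocyte function had list medians above that of all genes. Of 10 hepatocyte markers, 5 had an unadjusted p under 0.05 and were higher at the high dose without low-dose mouse 6 (median difference 0.28): Apoa1, the main apolipoprotein of HDL (0.31), the transcription factors Cebpa (0.36) and Hnf4a (0.32), and the urea cycle enzymes Arg1 (0.30) and Cps1 (0.37). Over all 16 mice only Apoa1 did, and the median was 0.13. The summed level of the 10 markers ran from 77810 to 108600 CPM in the 7 low-dose mice and from 74390 to 131100 CPM in the high-dose mice, and the ranges overlapped. Of 17 genes of the urea cycle and amino acid breakdown, 6 had an unadjusted p under 0.05, all higher (median 0.23), among them Arg1, Cps1, Nags, which makes the activator of Cps1 (0.27), Asl (0.36) and Aass (0.30). Over all 16 mice none did, and the median was 0.04. Cps1 stood at 6070 CPM in low-dose mouse 6, above the high-dose range of 1870 to 5560 CPM.

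Of 22 genes of bile acid synthesis and transport tested, 3 were higher and 1 lower at an unadjusted p under 0.05 without low-dose mouse 6 (median 0.17). With that mouse Slc10a1 alone was on the higher side and Abcb4 alone on the lower (median 0.07). Slc10a1, the sodium-dependent carrier that takes bile acids up from blood (NTCP), ranged from 344 to 471 CPM in 7 low-dose mice and from 407 to 807 CPM in the high-dose mice, against 957 ± 106 CPM in chow-fed mice and 311 ± 41.7 CPM in vehicle mice (SD, n = 8). Its difference was 0.48 (log2, SE 0.12, adjusted p 0.344). With low-dose mouse 6, which stood at 783 CPM, it was 0.33. Nr1h4, the bile acid receptor FXR (0.23), and Akr1d1, a reductase of bile acid synthesis (0.33), were the others on the higher side, and Abcb4, the phospholipid exporter of the canalicular membrane, was on the lower side (-0.28). Slc10a1 was 0.88 above vehicle at the high dose (adjusted p 5.83e-06) and 0.39 above it at the low dose (adjusted p 0.824), on the log2 scale by edgeR without low-dose mouse 6.

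Of 17 genes of drug metabolism, 4 were higher and 1 lower at an unadjusted p under 0.05 without low-dose mouse 6 (median 0.285). With it included the same 4, Nr1i3, Por, Cyp2e1 and Nr1i2, were higher and none lower, 10 of 17 differences were positive and the median was 0.09. Nr1i3, the xenobiotic receptor CAR, averaged 84.2 CPM at the high dose and 55.5 CPM in 7 low-dose mice, a difference of 0.60 (log2, SE 0.16, adjusted p 0.369). Por, the reductase that supplies electrons to cytochrome P450 enzymes, ranged from 430 to 771 CPM in the 7 low-dose mice and from 696 to 1400 CPM in the high-dose mice (0.67, SE 0.21). Cyp2e1, an ethanol- and acetone-oxidising P450 of the pericentral zone, differed by 0.47, and Nr1i2, the receptor PXR, by 0.26. Cyp3a11 differed by -0.38. All 10 pericentral markers had positive differences without low-dose mouse 6 (median 0.30) and 8 of 10 with it (median 0.14), and Cyp2e1 was the 1 with an unadjusted p under 0.05 in both fits. The Por mean in series C was 760 CPM at the high dose and 720 at the low dose, against 1180 and 595 in series A.

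Of 11 glucocorticoid response genes tested, 3 were higher and none lower at an unadjusted p under 0.05 without low-dose mouse 6 (median 0.36), namely Fkbp5, Mt1 and Klf9. The count was also 3 with it, where Mt2 stood in place of Klf9 (median 0.15). Fkbp5, a co-chaperone of the glucocorticoid receptor, ranged from 26.6 to 59.2 CPM in the 7 low-dose mice and from 32.6 to 165 CPM in the high-dose mice (1.07, SE 0.34, adjusted p 0.418). Its 3 highest values, 159, 138 and 165 CPM, were high-dose mice 2, 3 and 4, all of series A, while the series C means were 48.5 CPM at the high dose and 49.6 at the low dose. Mt1, a metallothionein, averaged 83.4 CPM against 33.2 CPM (1.33) and Klf9 differed by 0.40. Of 17 clock genes, 3 were higher without low-dose mouse 6 (median 0.275): Hlf (0.44) and Tef (0.37), transcription factors that drive rhythmic output genes, and Cry2 (0.28). Of these, only Hlf had an unadjusted p under 0.05 with all 16 mice (median 0.18). The hour of tissue collection of each mouse was not used here.

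Of 21 genes of fat synthesis, 2 were higher at an unadjusted p under 0.05, Dgat2, which makes triglyceride (0.31), and Mlxipl, the carbohydrate-sensing factor ChREBP (0.37), and the list median was -0.03. Dgat2 alone had one over all 16 mice (median 0.01). Scd1, the most abundant of them, averaged 42300 CPM at the high dose and 40300 CPM in 7 low-dose mice. None of 21 genes of cholesterol synthesis and uptake had an unadjusted p under 0.05 in either fit, and their median was 0.02. Of 20 genes of fatty acid oxidation, Acot1 alone did (0.83). Of 16 genes of lipid droplets and fatty acid uptake, 3 did, all lower at the high dose (median -0.24): Mogat1, a monoacylglycerol acyltransferase (-0.72), Cidea, a droplet-fusing protein scarcely found in healthy liver (-0.86), and Plin2, the main droplet coat protein (-0.31). Of these, Mogat1 alone did so with all 16 mice (median -0.11), with unadjusted p-values of 0.0544 for Cidea and 0.147 for Plin2. Cidea ranged from 22.6 to 46.7 CPM in the 7 low-dose mice and from 5.58 to 44 CPM in the high-dose mice, with low-dose mouse 6 at 7.62 CPM. Mogat1 means were lower at the high dose in each series, at 5.78 against 8.9 CPM in series A, 4.99 against 9.88 in series B and 6.01 against 10 in series C, without low-dose mouse 6. Cd36, the fatty acid transporter (-0.25), and Pparg, the lipogenic nuclear receptor (-0.28), had unadjusted p-values of 0.0752 and 0.069.

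Stress genes of the fatty liver are proteins that healthy liver makes little of. Of 12 tested, 5 had an unadjusted p under 0.05 and were lower (median -0.74), and over all 16 mice Sprr1a and Gdf15 were (median -0.65). Sprr1a, a cornified-envelope protein, ranged from 0.783 to 4.52 CPM in the 7 low-dose mice and from 0 to 1.25 CPM in the high-dose mice, against 2.07 to 8.07 CPM in vehicle mice (-2.01, SE 0.56, adjusted p 0.369). Ly6d ranged from 26.4 to 80.2 CPM and from 1.68 to 52.2 CPM in the same order (-1.14). Gdf15, a stress hormone that acts on the hindbrain, differed by -0.93, Cidea as given above, and Afp, the fetal albumin, by -0.76. Gdf15 averaged 7.69 CPM in vehicle mice, 11.2 CPM in the 7 low-dose mice and 5.88 CPM at the high dose. Afp averaged 1.74, 2.01 and 1.17 CPM in that order, so that both vehicle means lay between the doses. For Sprr1a, Ly6d and Cidea the mean of the 7 low-dose mice was below that of vehicle mice. Low-dose mouse 6 had no Sprr1a read and 1.41 CPM of Ly6d, a value below all high-dose mice. For Ly6d the series C means were 45.5 CPM at the high dose and 43.5 at the low dose, against 10.9 and 54.1 in series A. Of 12 targets of the oxidant sensor NRF2, all 12 had negative differences and 5 an unadjusted p under 0.05 (median -0.26): Srxn1, Hmox1, the heme oxygenase (-0.56), Nfe2l2, which encodes NRF2 (-0.24), Gstm3 (-0.74) and Gsta1 (-1.30). Among those 5, Hmox1 alone averaged more in the 7 low-dose mice (37.3 CPM) than in vehicle mice (29.8 CPM), with 25.3 CPM at the high dose. In the fit of all 16 mice all 12 were again negative, but only Srxn1 and Hmox1 had an unadjusted p under 0.05 (median -0.22). Gstm3 and Gsta1 belong to families of closely similar genes whose reads may be shared.

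**Figure D4:**
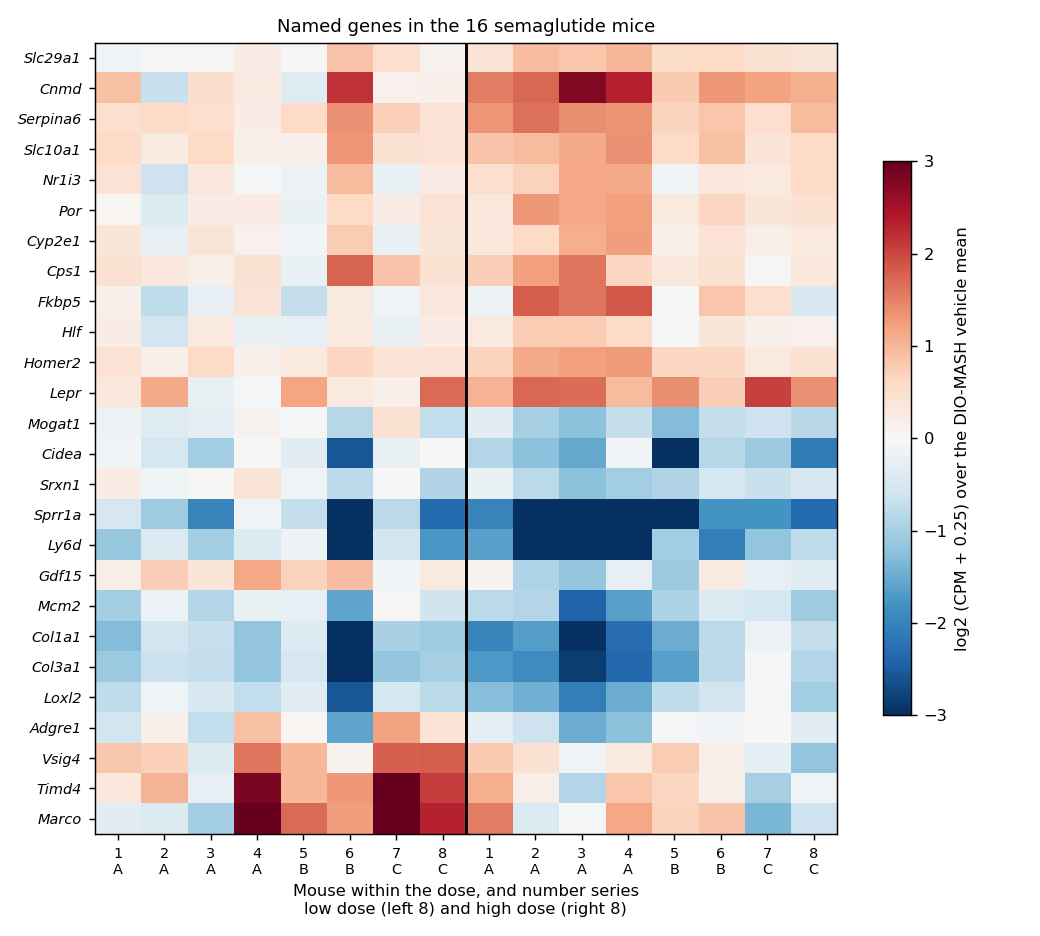
Level of 26 named genes (rows) in the 16 semaglutide mice (columns, number and series below), as log2 of CPM plus 0.25 over the DIO-MASH vehicle mean plus 0.25, with the colour scale cut at 3 either way. Low-dose mouse 6 shows the lowest Col1a1 and Ly6d of the low dose, at 19.2 and 1.41 CPM, and Timd4 and Marco are highest in low-dose mice 4, 7 and 8.

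Resident Kupffer cells are the macrophages that line the liver sinusoids and are seeded before birth. All 10 of their markers had negative differences in both fits, and 4 of 10 had an unadjusted p under 0.05 with and without low-dose mouse 6 (median -0.70 without it, -0.59 with it), read against 3.42% and 2.03% of all genes. Timd4, a receptor for dying cells, ranged from 0.959 to 12.9 CPM in the 7 low-dose mice and from 0.462 to 2.77 CPM in the high-dose mice (-1.82, SE 0.54, adjusted p 0.399). Marco, a scavenger receptor, ranged from 0.24 to 35 CPM and from 0.132 to 2.62 CPM (-3.08, SE 0.97, adjusted p 0.418). The low-dose values were uneven: Marco stood at 35, 21.5 and 4.64 CPM in low-dose mice 4, 7 and 8 and at 0.24 to 2.93 CPM in the other 5, within or near the high-dose range. Vehicle mice held 0 to 3.54 CPM of Marco and chow-fed mice 8.22 to 94.6 CPM. The others were Vsig4, a complement receptor, which averaged 39.5 CPM in the 7 low-dose mice and 19.8 CPM in the high-dose mice, and Adgre1, the macrophage antigen F4/80 (-0.77). Vehicle means were 1.18 CPM for Timd4 and 16.9 CPM for Vsig4, nearer the high-dose means of 1.47 and 19.8 CPM than the low-dose means of 5.2 and 39.5 CPM. For Adgre1 the vehicle mean was 45.5 CPM, between 33.9 CPM at the high dose and 57.8 CPM in the 7 low-dose mice. The summed level of the 10 markers ran from 493.7 to 1222 CPM in the 7 low-dose mice and from 459.7 to 710.7 CPM in the high-dose mice, and no marker was at 0 in a whole group. C6, a complement gene that hepatocytes also express, made up much of that sum, at 272 CPM in the 7 low-dose mice and 245 CPM in the high-dose mice on average.

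Of 13 markers of lipid-associated macrophages, Fabp5 alone had an unadjusted p under 0.05 and was higher (0.85), with 69.2 CPM in high-dose mouse 2 (median of the list -0.14). The summed level ran from 775.1 to 1051 CPM in the 7 low-dose mice and from 436.4 to 1297 CPM in the high-dose mice, and low-dose mouse 6 stood at 357.8 CPM. None of 12 stellate cell markers had an unadjusted p under 0.05 in either fit (median -0.04). None of 10 markers of sinusoidal endothelium, 10 of bile duct cells, 12 of T and cytotoxic cells, 6 of B and plasma cells and 5 of neutrophils did either. Without low-dose mouse 6, differences were negative for all 10 bile duct and all 6 B and plasma cell markers. They were also negative for 11 of 12 T and cytotoxic, 4 of 5 neutrophil and 5 of 10 endothelial markers. With that mouse they were negative for 8 of 10 bile duct, 6 of 6 B and plasma cell and 7 of 12 T and cytotoxic markers. The neutrophil and endothelial counts were the same in both fits. Of all genes tested, 47.7% had a positive difference without that mouse and 48% with it. Of 23 chemokine and innate signaling genes, Map3k5 was higher (0.47) and Tnf lower (-1.23), the latter at a mean below 1 CPM in both groups.

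Collagen and matrix genes form the scar of steatohepatitis. Of 38 tested, 33 had a negative difference without low-dose mouse 6 (median -0.24) and 31 with it (median -0.15). Loxl2, a collagen crosslinking enzyme (-0.47), was the 1 with an unadjusted p under 0.05 without that mouse. Over all 16 mice no matrix gene had one, and that of Loxl2 was 0.172 by edgeR. Col1a1 ranged from 109 to 205 CPM in the 7 low-dose mice and from 30.4 to 239 CPM in the high-dose mice, with low-dose mouse 6 at 19.2 CPM, against 123 to 344 CPM in vehicle mice and 5.1 to 28.3 CPM in chow-fed mice. The Col1a1 ratio was 0.742 (95% interval 0.456 to 1.21, adjusted p 0.834), and that of Col3a1 0.767 (0.517 to 1.14). The means of Col1a1 at the high and low dose were 60 and 146 CPM in series A, and 202 and 134 CPM in series C, so that the direction turned between these series. Col3a1 did the same, at 89.8 and 214 CPM in series A and 303 and 187 CPM in series C. Fbn1 (-0.47), Lox (-0.68), Timp1 (-0.27) and Acta2 (-0.30) did not reach an unadjusted p under 0.05. Against DIO-MASH vehicle without low-dose mouse 6, Col1a1 was -1.27 at the high dose (adjusted p 0.0257) and -0.84 at the low dose (adjusted p 0.97), and Col3a1 was -1.26 (adjusted p 0.00594) and -0.88 (adjusted p 0.848), on the log2 scale by edgeR and against the same vehicle mice.

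**Figure D5:**
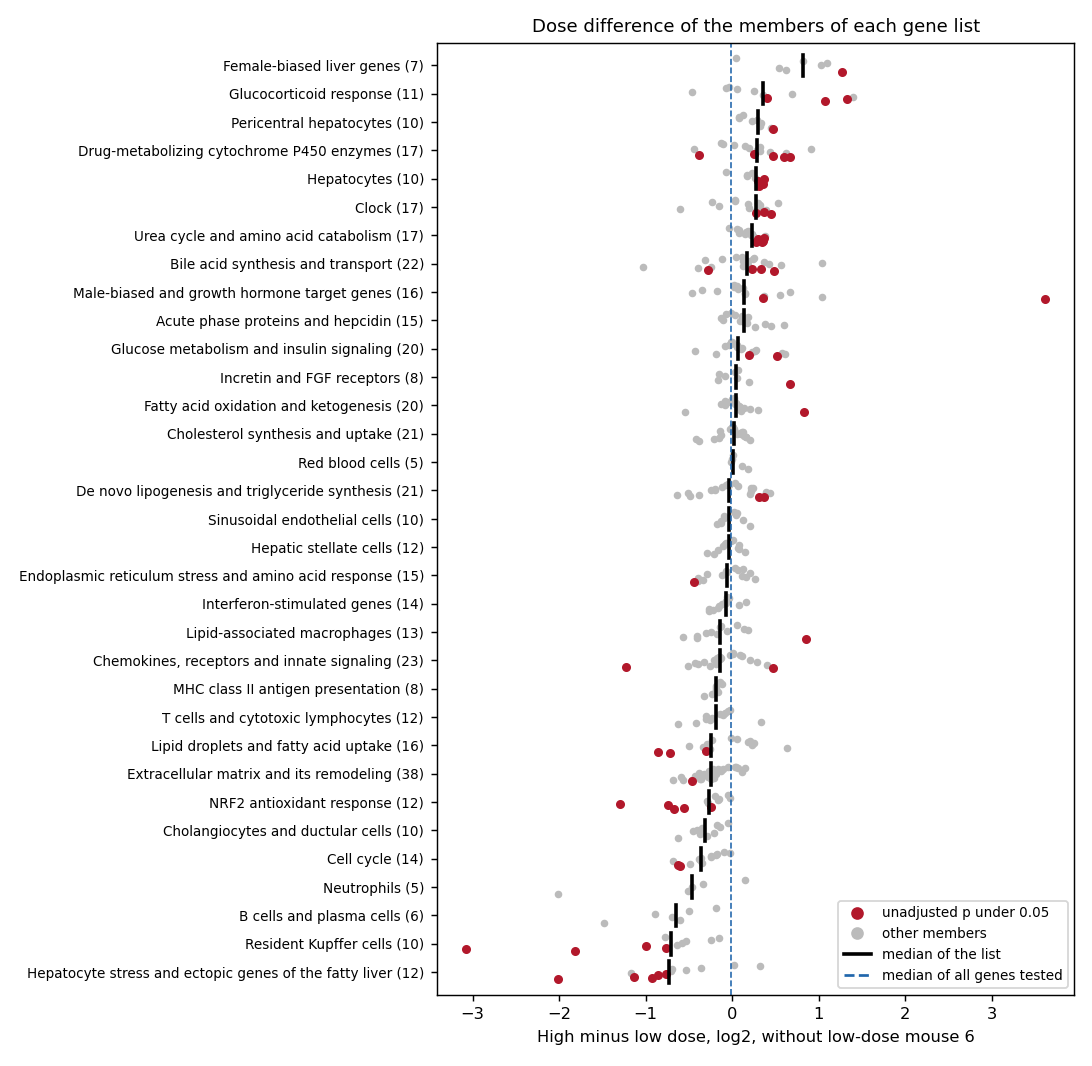
High-minus-low difference (log2, without low-dose mouse 6) of each member of 33 gene lists with at least 5 tested members (number in brackets), red where the unadjusted p was under 0.05, with the list median (black) and the median of all genes (dashed). The female-biased and glucocorticoid lists lie furthest right, with medians of 0.82 and 0.36, and the hepatocyte, P450 and amino acid lists also lie to the right. Stress, Kupffer cell, and B and plasma cell lists lie furthest left, with medians of -0.74, -0.70 and -0.65.

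In the cell cycle list, Mcm2 (-0.60) and Mcm5 (-0.62), parts of the replicative helicase, had an unadjusted p under 0.05. All 14 members had negative differences (median -0.36). Of genes named above that are not in this list, Tk1 was higher (0.78), and Wdhd1 (-0.98) and Mcm7 (-0.45) were lower. Over all 16 mice Mcm2 alone of the list had an unadjusted p under 0.05, and 13 of 14 were negative (median -0.205). In glucose metabolism, Gys2, the glycogen synthase of liver (0.51), and Gckr, the regulator of glucokinase (0.19), were higher among 20, and over all 16 mice Gys2 alone was. Igfals, the growth hormone-dependent partner of insulin-like growth factor 1, was higher (0.36) with Hsd3b5 among 16 male-biased genes, and over all 16 mice none of these 16 had an unadjusted p under 0.05. Cyp2a4 was higher (1.27) among 7 female-biased genes, of which all 7 had positive differences without low-dose mouse 6 (median 0.82) and 6 with it (median 0.79). Hsd3b5 averaged 0.953 CPM in the 7 low-dose mice, 7.52 CPM with low-dose mouse 6 and 12.3 CPM at the high dose. Atf5 (-0.45) was the 1 lower gene of 15 in the endoplasmic reticulum stress list, and over all 16 mice Dnajb9 was also lower. None of 15 acute phase, 14 interferon-stimulated and 8 MHC class II genes had an unadjusted p under 0.05 without low-dose mouse 6. Their differences were negative for 4, 12 and 8 of them in that order, and for 2, 12 and 8 with that mouse. Of 8 tested receptor genes, Lepr, the leptin receptor, was higher (0.67), from 12 to 46 CPM in the 7 low-dose mice and 23.7 to 59.2 CPM in the high-dose mice. Klb, the co-receptor of FGF21, and Fgfr4, the receptor of the intestinal bile acid signal, differed by 0.19 and -0.08 (adjusted p 0.814 and 0.907). Fgf21 averaged 3.32 CPM in the 7 low-dose mice and 3.34 CPM in the high-dose mice.

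Homer2 and Ces1c had an unadjusted p under 0.05 without low-dose mouse 6. Homer2 differed by 0.47, from 31 to 42.4 CPM in the 7 low-dose mice and 34 to 67.8 CPM in the high-dose mice, and Ces1c, a carboxylesterase of plasma, differed by 0.31. Insyn1 differed by -0.71 (unadjusted p 0.0749). Over all 16 mice Homer2 differed by 0.44 (unadjusted p 0.0018 by edgeR), Ces1c by 0.20 (0.0666) and Insyn1 by -0.55 (0.181). Against vehicle in the fit without low-dose mouse 6, Homer2 was 0.84 higher at the high dose (adjusted p 0.000209) and 0.37 higher at the low dose (adjusted p 0.946).

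The dose step of semaglutide was last set against that of zalfermin. No gene had a high-minus-low difference that differed between the drugs in edgeR's interaction test, with all mice (0 of 14105, 0%) or without low-dose mouse 6 (0, 0%). At an unadjusted p under 0.05 there were 525 (3.72%) and 426 (3.02%), and DESeq2 and limma voom also called 0. Between the zalfermin doses taken alone, 260 of 14105 genes (1.84%) passed the adjusted threshold in the fit of all mice. Between the semaglutide doses 0 did, and 2 without low-dose mouse 6. Counts past a threshold do not test whether the steps differed. A missed threshold of the interaction does not show that the steps were alike. The doses of both drugs were spaced differently, so that this compares the 2 steps as given.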

How the data were processed

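Liver RNA of 56 mice was sequenced from poly(A)-selected stranded libraries on a NextSeq 500. The deposited table holds raw read counts per gene, whole numbers that the authors made from reads aligned to GRCm38. The labels also name Trim Galore 0.6.4 and Salmon 1.9.0, and the counting program and its strand setting are not given in the sources used here. Total counts ran from 5228187 to 20885786 per mouse, with a median of 12206788.

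Groups were taken from the treatment labels, and replicates are separate mice. Of 21935 genes, 14105 with at least 5 reads in at least 3 mice were fitted with edgeR 4.0.16 in R 4.3.3 (trimmed mean of M-values normalisation, quasi-likelihood test) over all 7 groups, which share 1 estimate of the spread. Genes were called at a Benjamini-Hochberg adjusted p under 0.05 over all genes tested. CPM values use the normalised library sizes. The position on the disease axis was compared by an exact two-sided permutation test over mice, and its interval holds the shifts that this test did not reject. DESeq2 1.42.0, limma voom 3.58.1, other filters and size factors, number series as a covariate or alone, and leaving out each mouse were alternatives. The test was also tried on simulated counts with known changes. Figures were drawn with matplotlib 3.10.9.

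The members, the 36 gene lists and the axis were chosen with earlier results of these data known. Named genes are, in each fit, those past the threshold and the 10 with the smallest unadjusted p at a mean of 1 CPM or more, up to 2 members of each list with the smallest p without low-dose mouse 6 and its most abundant member, and genes named by the study or by an earlier analysis. The further list members at an unadjusted p under 0.05 (Nr1h4, Akr1d1, Adgre1, Vsig4, Hnf4a, Arg1, Cyp3a11, Nr1i2, Klf9, Asl, Aass, Nfe2l2, Gstm3, Gsta1, Afp, Mt2 and Dnajb9), the genes whose groups did not overlap and those called in series A were named after their values were seen. The mitochondrially encoded list had 0 of 8 genes in the table, and the exocrine pancreas and adipocyte lists had 2 genes tested each, with none at an unadjusted p under 0.05. None of 5 red blood cell genes had one either. A member of the amino acid list is counted but not reported here by name.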

Additional observations from a re-analysis of the deposited data

Results flagged for a closer look

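Of 105 groups of values checked, 10 held a mouse whose gap to the nearest other mouse was above Dixon's 95% critical value. Chance alone picks out about 1 in 20 independent groups. These groups share the same mice, and their genes were named in part by p without low-dose mouse 6, so that share is no yardstick here. Of these 10, 8 were low-dose mouse 6. It held the highest low-dose values of Cnmd (6.33 CPM), Serpina6 (636.0 CPM), Slc10a1 (783.0 CPM) and Cps1 (6070.0 CPM), and the lowest of Col3a1 (34.4 CPM). Its position on the disease axis (81.39%) and its summed urea cycle and amino acid genes (20790.0 CPM) were the highest of the low dose, and its summed markers of lipid-associated macrophages (357.8 CPM) the lowest.

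The other 2 were high-dose mouse 2, with Mt1 at 223.0 CPM and Fabp5 at 69.2 CPM. What sets either mouse apart was not tested.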

How the results depend on the processing

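The count of genes past the threshold over all 16 mice was 0 and became 1 with limma voom and quality weights (Slc29a1) and 6 in number series A alone. Leaving out 1 mouse at a time gave 0 to 2, with 2 without low-dose mouse 6. Without low-dose mouse 6 the count was 2, and it became 4 with limma voom (Cnmd, Fam131c, Prkag2 and Slc29a1), 0 in the 2 semaglutide groups alone and 6 in series A alone. DESeq2 gave 2, Serpina6 and Slc29a1. Leaving out 1 further mouse gave 1 to 2, and Slc29a1 was called in each of these fits.

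The difference on the disease axis in mean z-score was 0.106 over all 16 mice and turned to -0.344 in series B and -0.105 in series C. Without low-dose mouse 6 it was 0.23, and -0.105 in series C. Leaving out 1 further mouse gave 0.155 to 0.318. The largest was that without high-dose mouse 7, the lowest of its dose (exact permutation p = 0.0332). With 1 mouse left out at a time, the Cps1 difference over all 16 mice ran from -0.0651 without high-dose mouse 3 to 0.368 without low-dose mouse 6, and it was 0.761 in series A alone. Of 4610 values of 99 genes under alternatives, 4581 kept their direction and side of the threshold. As Slc29a1 and Cnmd alone had passed the threshold in a main fit, this mostly means that other genes again did not pass. Without low-dose mouse 6, Cnmd lost its call in 8 of 22 alternatives and Slc29a1 in 2 of 23. The causes were not tested.

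No paired analysis was possible because the labels give no replicate numbers that groups share. With number series as a covariate the counts were 0 over all 16 mice and 2 without low-dose mouse 6. With 7 or 8 mice a dose, steps under 1.5-fold were often not resolved. Larger ones could also miss the threshold, such as Fkbp5 (1.07) and Marco (-3.08) on the log2 scale without low-dose mouse 6. Each had an adjusted p of 0.418 by edgeR.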
